A study of Mus musculus with 6 samples.

Results

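Zinc finger genes with the mouse symbols Zfp600 to Zfp999 were examined in liver sinusoidal endothelial cells exposed to cyclic stretch. The members were all rows of the deposited count table whose symbol is Zfp followed by a 3-digit number of 600 or more, and 139 of 23337 genes met this rule. Symbols with a trailing letter were not included. The cells were primary mouse sinusoidal endothelial cells, the fenestrated lining of the hepatic capillaries, isolated with immunomagnetic beads, cultured in endothelial medium with fetal bovine serum, plated on collagen IV and then deprived of serum. The control group (replicates 2, 3 and 4) stayed unstretched, and the stretch group (replicates 1, 2 and 4) received 4% cyclic stretch at 1 Hz in Flexcell plates, whose flexible floor is pulled rhythmically. The sources used here do not give the mouse strain, the age and number of animals or the length of the stretch. No label says that the libraries came from separate isolations, so p-values measure the spread between these 6 libraries, which may be technical.

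Most genes with a Zfp number encode proteins with tandem C2H2 zinc fingers, small folds in which 2 cysteines and 2 histidines hold a zinc ion and through which the protein reads DNA bases. Many also carry a KRAB domain near the amino terminus. This domain recruits the corepressor TRIM28, which in turn brings the histone methyltransferase SETDB1 and heterochromatin proteins, and KRAB proteins of this kind are best known for silencing transposable elements. The mouse genes lie largely in chromosome clusters that arose by tandem duplication. The numbers in the symbols follow the order of naming and carry no functional meaning.

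Total gene counts lay between 48948948 and 68489956 per library. Of the sinusoidal and endothelial markers, 12 of 12 were detected, with a summed level of 13055 to 14533 CPM in the controls and 11078 to 12626 CPM after stretch. CPM is the count scaled to a common library total after TMM, which adjusts library sizes for composition. The 12 hepatocyte markers summed to 67.7 to 89.4 CPM in the controls and to 116 to 579 CPM after stretch, with the highest value in stretch replicate 1 and 128 CPM at most in the other two. The 11 macrophage markers found summed to 111 to 119 CPM in the controls and 142 to 173 CPM after stretch, and 5 cholangiocyte markers to 80.9 to 107 CPM and 141 to 167 CPM. Stellate cell and fibroblast markers (10 genes) spanned 84.5 to 95.6 CPM and 67.0 to 111 CPM, and 3 of 6 lymphocyte markers had no count in any library. Of the sinusoidal markers 9 of 12 were called lower and 0 higher, and 8 hepatocyte, 6 macrophage and 3 cholangiocyte markers were called higher and 0 lower. Sinusoidal, hepatocyte, macrophage and cholangiocyte transcripts moved with the groups, and their part in the changes of the zinc finger genes was not tested. In bulk RNA, fewer cells of a type and less RNA per cell cannot be told apart.

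After stretch, more zinc finger members fell than rose. Of the 139 members, 127 passed the filter on low counts and were tested across all genes with edgeR's quasi-likelihood test, and a gene was called at a Benjamini-Hochberg adjusted p under 0.05. Among them 15 rose (11.8%), 33 fell (26.0%) and 79 did not pass, so that 37.8% were called. Over all 14222 genes tested 21.4% were called higher and 22.6% lower (44% in all), so the share of members that rose was below the background and the share that fell was near it. The median log2 fold change of stretch over control was -0.13 over the members tested and -0.01 over all genes, and 84 of 127 members lay below 0. The 126 members with at least 10 reads in 3 libraries gave the same 15 and 33 calls. Group CPM ranges did not overlap for 75 of 127 members (21 higher and 54 lower), against 55.9% of all genes (26.7% higher and 29.2% lower). Among called members the median absolute log2 fold change was 0.50, against 0.41 among all called genes. Of the 127 members 21 were both called and changed at least 1.5-fold, against 13.5% of all genes. Scaled by library size alone, 12 members rose and 45 fell, beside 2091 and 4299 of all genes. The count of members that fell dropped to 21 without control replicate 2, when 12 rose. Over all genes 2348 then rose and 2408 fell. Without stretch replicate 1, 14 members rose and 27 fell, beside 2614 and 2744 of all genes. With TMM and all libraries 3040 rose and 3221 fell over all genes, so the counts over all genes moved with the setting too.

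**Figure D1:**
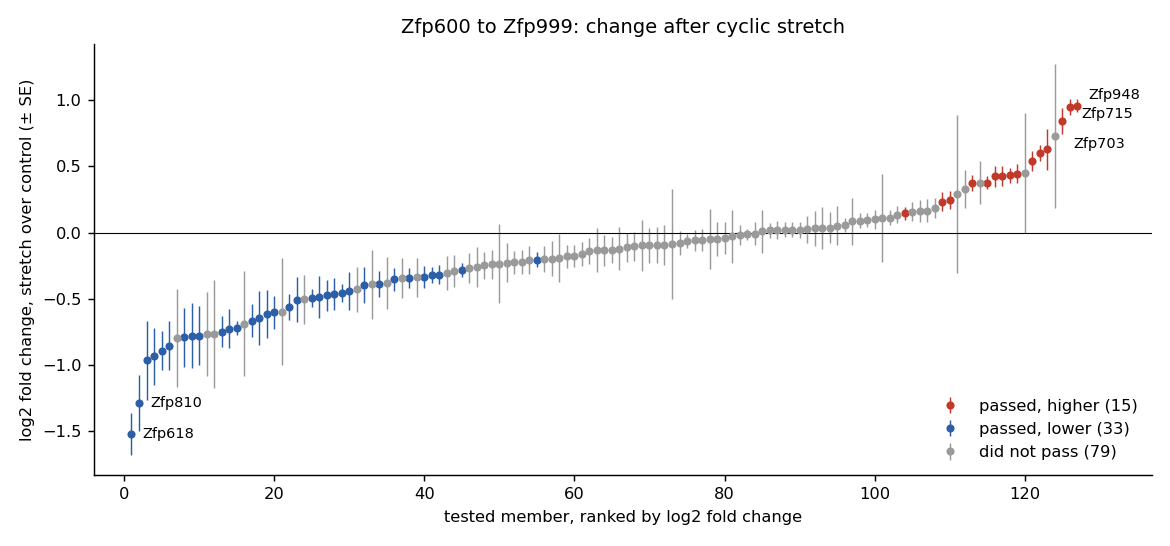
Log2 fold change of stretch over control (vertical axis, with SE bars) for the 127 tested members, ranked along the horizontal axis. Red points are the 15 members that rose, blue points the 33 that fell and grey points the 79 that did not pass, and the range runs from -1.52 for Zfp618 to 0.96 for Zfp948.

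The 2 largest increases were of nearly the same size, in KRAB zinc finger genes on different chromosomes. Zfp948 (chromosome 17, 21567046 to 21588682) had 58.2, 59.5 and 54.5 CPM in control replicates 2, 3 and 4 and 109, 113 and 113 CPM in stretch replicates 1, 2 and 4. All stretch libraries were far above all controls, and the spread within each group was small. It rose 1.94-fold, with a log2 fold change of 0.96 ± 0.05 (SE; edgeR's adjusted p = 3.72e-05). Zfp715 (chromosome 7, 43296523 to 43313261) had 21.8, 20.1 and 20.0 CPM in the controls and 39.0, 38.3 and 42.3 CPM after stretch. It rose 1.93-fold (log2 fold change 0.95 ± 0.06, edgeR's adjusted p = 5.07e-05), again with no overlap between groups. Both calls held in 16 of 16 alternative analyses.

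Zfp703 encodes a transcriptional corepressor of the NET/NLZ family, known for its amplification in luminal breast cancer. Its level was 72.8, 73.3 and 76.3 CPM in the controls and 156, 115 and 128 CPM after stretch, the highest in stretch replicate 1. It rose 1.79-fold (log2 fold change 0.84 ± 0.10, edgeR's adjusted p = 0.000332), and the log2 fold change was at least 0.72 with any 1 library left out. Zfp954, another KRAB gene, went from 13.3, 13.2 and 14.0 CPM to 20.5, 19.8 and 21.0 CPM. The 2 groups were tight and well apart, and the log2 fold change was 0.60 ± 0.06 (edgeR's adjusted p = 0.000183). Zfp719, which lies close to Zfp715 on chromosome 7, had 12.4, 12.9 and 13.0 CPM in the controls and 18.9, 17.0 and 19.8 CPM after stretch (log2 fold change 0.54 ± 0.08). Zfp697 had low levels, of 2.65 ± 0.273 CPM in the controls and 4.11 ± 0.468 CPM after stretch (mean ± SD, n = 3 per group), and had a log2 fold change of 0.63 ± 0.16. Its call held in 15 of 16 alternatives and was lost against a minimum change of 1.2-fold (glmTreat's adjusted p = 0.0540). Zfp800 and Zfp655, whose protein binds the signalling adaptor VAV, had log2 fold changes of 0.44 ± 0.07 and 0.43 ± 0.06. The remaining 7 that rose were Zfp710, Zfp827, Zfp828, Zfp622, Zfp777, Zfp672 and Zfp664, with log2 fold changes from 0.43 down to 0.15.

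**Figure D2:**
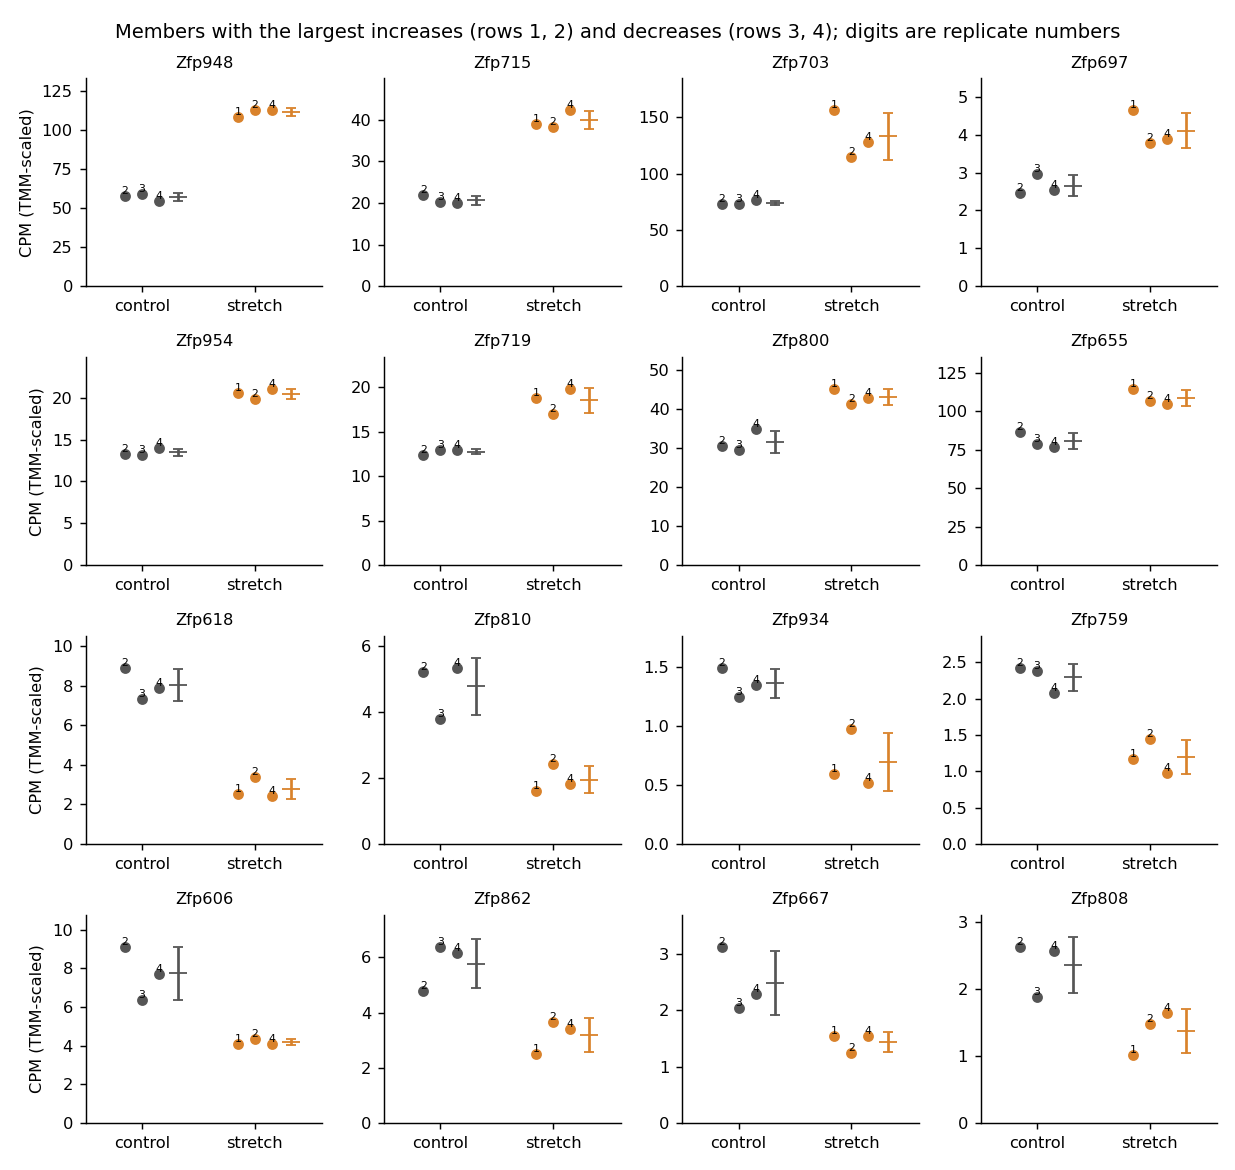
CPM (TMM-scaled, vertical axis from 0) in each of the 3 control (grey) and 3 stretch (orange) libraries for 16 called members. The top 2 rows are the 8 with the largest increases among those called, and the bottom 2 rows the 8 with the largest decreases. Members that did not pass, with log2 fold changes from -0.80 to 0.73, are not shown. Small digits give the replicate number and bars the mean ± SD. In each of the 16 panels the control and stretch points do not overlap, which the choice of members required.

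Promoter windows are shown for 3 of the members that rose, Zfp948, Zfp715 and Zfp719, and for the 2 with the largest decreases, Zfp618 and Zfp810. Each window runs from 250 bases before to 50 bases after a RefSeq start (GRCm38.p6), written 5′ to 3′ on the strand of the gene. Capitals mark matches, on either strand, to any of 7 motifs. These were the GC box GGGCGG, the ETS-type site CCGGAA, the inverted or direct CCAAT box, the AP-1 site TGANTCA, the E-box CACGTG and the YY1 core AAGATGGCG. The last was a palindromic CGCG element of 10 letters, which was in 0 of the members' windows and 0.466% of all windows.
Zfp948 (chr17:21566728-21567027, plus strand): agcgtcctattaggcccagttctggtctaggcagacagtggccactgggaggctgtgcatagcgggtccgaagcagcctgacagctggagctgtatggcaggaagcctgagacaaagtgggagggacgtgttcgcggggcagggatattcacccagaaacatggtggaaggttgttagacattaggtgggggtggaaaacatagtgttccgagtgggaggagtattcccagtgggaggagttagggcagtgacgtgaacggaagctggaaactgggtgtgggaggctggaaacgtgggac
Zfp715 (chr7:43313251-43313550, minus strand): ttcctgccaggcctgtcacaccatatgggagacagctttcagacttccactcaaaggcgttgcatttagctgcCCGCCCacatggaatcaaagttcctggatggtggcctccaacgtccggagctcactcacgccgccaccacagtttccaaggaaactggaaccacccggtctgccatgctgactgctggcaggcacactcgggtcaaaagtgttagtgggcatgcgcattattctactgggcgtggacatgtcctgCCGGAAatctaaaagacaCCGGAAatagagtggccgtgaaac
Zfp719 (chr7:43579336-43579635, plus strand): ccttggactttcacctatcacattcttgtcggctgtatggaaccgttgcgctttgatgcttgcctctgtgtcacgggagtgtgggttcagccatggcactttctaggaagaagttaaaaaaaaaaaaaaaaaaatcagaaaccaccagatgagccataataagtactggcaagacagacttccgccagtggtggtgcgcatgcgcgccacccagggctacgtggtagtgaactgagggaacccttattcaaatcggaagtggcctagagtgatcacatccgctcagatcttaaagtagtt
Zfp618 (chr4:62965317-62965616, plus strand): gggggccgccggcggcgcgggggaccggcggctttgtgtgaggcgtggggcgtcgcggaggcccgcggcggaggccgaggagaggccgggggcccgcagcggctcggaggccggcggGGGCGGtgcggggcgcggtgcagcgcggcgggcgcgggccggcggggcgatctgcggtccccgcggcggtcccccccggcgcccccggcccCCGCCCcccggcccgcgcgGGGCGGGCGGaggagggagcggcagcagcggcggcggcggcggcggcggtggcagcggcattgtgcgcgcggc
Zfp810 (chr9:22307589-22307888, minus strand): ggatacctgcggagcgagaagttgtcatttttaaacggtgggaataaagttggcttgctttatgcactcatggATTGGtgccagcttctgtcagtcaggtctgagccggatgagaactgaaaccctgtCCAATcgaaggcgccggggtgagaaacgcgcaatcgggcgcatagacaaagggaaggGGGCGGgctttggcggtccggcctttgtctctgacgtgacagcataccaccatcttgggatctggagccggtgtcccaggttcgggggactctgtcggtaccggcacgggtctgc
The windows of Zfp948 and Zfp719 held none of the 7 motifs as written, and that of Zfp715 held 1 GC box and 2 CCGGAA matches. The neighbours Zfp715 and Zfp719 thus shared none of the marked matches. Shorter forms were not marked, and GGAA occurs in the windows of Zfp948, Zfp715 and Zfp719. The window of Zfp954, which also rose, is not printed and held a GC box and a CCAAT match. Zfp618 had 59 CG dinucleotides and 4 GC box matches, of which 2 overlap. Zfp810 had 20 CG dinucleotides, 1 GC box and 2 CCAAT matches. Across the family, 118 of 139 members matched a RefSeq entry, with 146 windows. CCGGAA was found in 32.9% of the members' windows and in 14.9% of all 32851 windows, CCAAT in 54.1% and 37.4%, and GGGCGG in 43.8% and 35.7%. TGANTCA was found in 4.79% of the members' windows and 7.81% of all windows. The median number of CG dinucleotides was 13 in the members' windows and 7 in all. Among members that rose (16 windows), fell (37) or did not pass (93), CCGGAA was in 25%, 27.0% and 36.6% of windows. CCAAT was in 25%, 51.4% and 60.2%. These are counts of letters in a window and not of bound sites.

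Zfp618 fell most. Its protein binds the DNA methylation reader UHRF2. It had 8.91, 7.33 and 7.87 CPM in control replicates 2, 3 and 4 and 2.53, 3.39 and 2.45 CPM in stretch replicates 1, 2 and 4. The lowest control library was above the highest stretch library by a wide margin, and the fall was 2.87-fold (log2 fold change -1.52 ± 0.16, edgeR's adjusted p = 0.000186). Zfp810, a KRAB gene, had 5.2, 3.78 and 5.33 CPM in the controls and 1.61, 2.42 and 1.81 CPM after stretch. It fell 2.44-fold (log2 fold change -1.29 ± 0.21, edgeR's adjusted p = 0.00153). For both, stretch replicate 2 lay nearest to the controls. Both calls held in 16 of 16 alternatives.

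The next largest decreases among called members were in scarce genes. Zfp606 went from 9.13, 6.37 and 7.74 CPM to 4.07, 4.35 and 4.11 CPM, so that its control libraries varied far more than its stretch libraries (log2 fold change -0.89 ± 0.15, edgeR's adjusted p = 0.00155). Zfp759 fell from 2.29 ± 0.188 to 1.2 ± 0.234 CPM (means ± SD, n = 3 per group; log2 fold change -0.93 ± 0.21). Zfp862 fell from 5.78 ± 0.874 to 3.19 ± 0.618 CPM (log2 fold change -0.85 ± 0.18). In the GENCODE transcripts used for protein classes it was matched to Zfp862-ps, a pseudogene symbol, and had no protein to class. The call of Zfp667, also known as Mipu1 and first described in ischaemic preconditioning of the heart, was less firm. Its log2 fold change was -0.79 ± 0.22 (edgeR's adjusted p = 0.0207), and edgeR's adjusted p rose to 0.0964 without control replicate 2 and 0.0664 without stretch replicate 2 (0.0106 to 0.0964 over all alternatives).

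Zfp934 and Zfp808, both on chromosome 13, share sequence with each other and are uncertain. Of the 50-base words in the transcripts of Zfp934, 30.9% also occur in transcripts of other genes (14.4% in Zfp808), and of those of Zfp808 28.2% do (19.6% in Zfp934). Zfp934 had 1.36 ± 0.123 CPM in the controls and 0.693 ± 0.245 CPM after stretch (mean ± SD, n = 3 per group), a log2 fold change of -0.96 ± 0.30 (edgeR's adjusted p = 0.0291). Its call was lost with any 1 library left out other than stretch replicate 2, with edgeR's adjusted p at 0.102, 0.0553 and 0.0734 for control replicates 2, 3 and 4 and at 0.0743 and 0.0930 for stretch replicates 1 and 4 left out (0.0107 to 0.102 over all alternatives). Zfp808 had a log2 fold change of -0.78 ± 0.25 (edgeR's adjusted p = 0.0316). The call of Zfp808 was lost without control replicates 2 and 4, and likewise stretch replicates 1 and 2 (edgeR's adjusted p = 0.116, 0.101, 0.0711 and 0.0586; 0.0182 to 0.116 over all alternatives).

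Levels of different genes were compared as RPKM, the authors' read values scaled by coding length and library total. Over the tested members the mean RPKM ran from 0.037 to 34.7, with a median of 2.25. Zfp664 had the highest level per length, at 34.0 ± 1.92 RPKM in control and 35.4 ± 0.020 RPKM in stretch libraries (mean ± SD, n = 3 per group). Zfp948 followed with 21.1 ± 0.83 and 38.5 ± 1.42 RPKM, and Zfp703 with 21.4 ± 0.85 and 36.1 ± 5.22 RPKM. In control libraries Zfp664 was therefore clearly above both, whereas in stretch libraries the levels of the 3 genes differed by less than the spread of Zfp703. Zfp652 was at 25.7 ± 1.02 RPKM in control and 14.7 ± 0.91 RPKM in stretch libraries. Zfp740 had 21.5 ± 0.37 and 14.8 ± 1.44 RPKM, and Zfp622 had 15.7 ± 0.49 and 19.1 ± 1.13 RPKM. Of these 6 most abundant members, 4 rose and 2 fell, and the call of Zfp664 held in 7 of 16 alternatives. Calls were frequent at such levels: of other genes at 3.66 to 34.7 RPKM, a wider range, 25.7% rose and 28.7% fell. The order of levels thus changed with stretch: Zfp652 was second in control libraries, and Zfp948 and Zfp703 were above Zfp652, Zfp740 and Zfp622 in stretch libraries.

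Counts of calls differed by level, and no trend was tested. Of the 43 most abundant members (3.66 to 34.7 RPKM) 12 rose and 8 fell, with a median log2 fold change of 0.02. In the 42 of intermediate level (1.28 to 3.61 RPKM) 1 rose and 13 fell, with a median of -0.20, and in the 42 scarcest (0.037 to 1.26 RPKM) 2 rose and 12 fell, with a median of -0.36. Other genes in the same RPKM ranges had medians of -0.02, -0.19 and -0.05. In the highest range 25.7% of those other genes rose and 28.7% fell, so the 27.9% of members that rose there was near the background. In the intermediate range 2.38% of members rose and 31.0% fell, against 10.6% and 34.0% of those genes. The excess of decreases there was thus not particular to zinc finger genes. In the lowest range 4.76% of members rose and 28.6% fell, against 7.73% and 11.1% of other genes. No test was made of these differences. Genes were matched on RPKM and not on reads, so the power to call may differ between members and other genes. The summed level of all 139 members was 2265, 2154 and 2182 CPM in the controls and 2293, 2284 and 2291 CPM after stretch, and all stretch libraries were above all controls. This direction depends on the scaling. As a share of all gene counts, without TMM, the members took 0.231%, 0.223% and 0.228% in the controls and 0.218%, 0.226% and 0.220% after stretch, and the ranges overlapped. Per library, the members that fell had a median log2 ratio to the control mean of -0.59, -0.50 and -0.59 in stretch replicates 1, 2 and 4. For 16 of the 33 members that fell and 10 of the 15 that rose, stretch replicate 2 was the stretch library nearest to the controls.

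**Figure D3:**
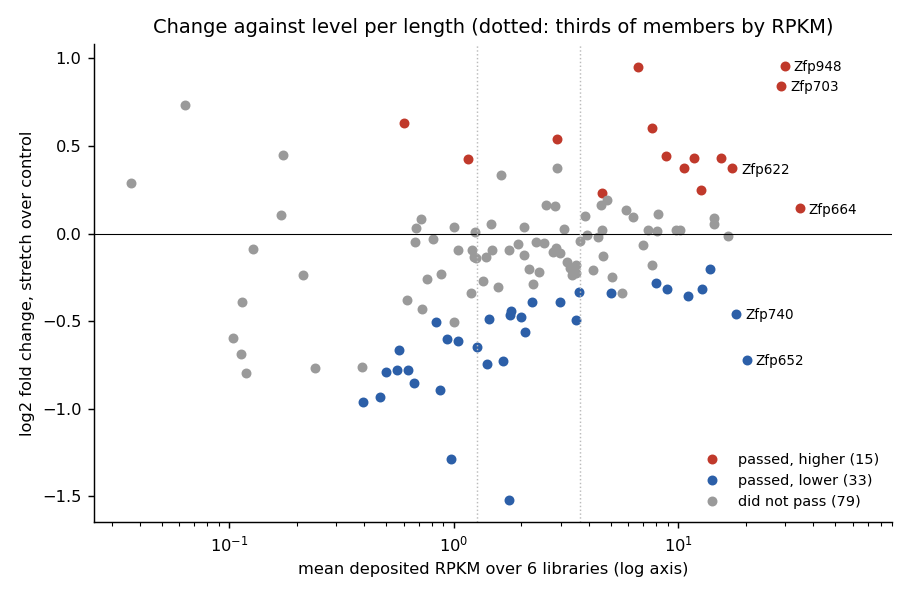
Log2 fold change of stretch over control (vertical axis) against the mean deposited RPKM over 6 libraries (horizontal log axis) for the 127 tested members. Dotted lines at 1.28 and 3.66 RPKM divide the members into 3 groups by level, and 12 of the 15 members that rose (red) lie to the right of the second line.

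Among 23 tested members with a described cellular role, 4 rose (17.4%), 6 fell (26.1%) and 13 did not pass, shares near the 21.4% and 22.6% of all genes. Zfp652 encodes a repressor that works with the corepressor CBFA2T3. It had 73.5, 74.3 and 68.0 CPM in the controls and 42.3, 45.8 and 42.9 CPM after stretch, with no overlap, and fell 1.65-fold (log2 fold change -0.72 ± 0.05, edgeR's adjusted p = 6.90e-05). Zfp687, part of a chromatin complex with ZMYND8, had 20.5, 20.7 and 20.1 CPM in the controls and 13.5, 14.8 and 15.2 CPM after stretch (log2 fold change -0.50 ± 0.07). Zfp651, the mouse counterpart of ZBTB47, fell from 4.76 ± 0.251 to 3.0 ± 0.0877 CPM (log2 fold change -0.67 ± 0.13). The decrease of Zfp746, which encodes PARIS, a Parkin substrate that represses the gene of PGC-1 alpha, was small. Its log2 fold change was -0.20 ± 0.06 (edgeR's adjusted p = 0.0178), and the call was lost without control replicate 2, stretch replicate 2 or stretch replicate 4 (edgeR's adjusted p = 0.0682, 0.0513 and 0.0648; 0.00245 to 0.989 over all alternatives).

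The other members with a described role that rose are Zfp622, Zfp828 and Zfp664. Zfp622 encodes a cytoplasmic maturation factor of the large ribosomal subunit. It had 48.0, 44.2 and 46.0 CPM in the controls and 57.9, 56.7 and 64.3 CPM after stretch, and rose 1.29-fold (log2 fold change 0.37 ± 0.06, edgeR's adjusted p = 0.00157). Zfp828, the older symbol of Champ1, encodes a protein needed for chromosome alignment in mitosis. Its level went from 38.6, 41.8 and 40.4 CPM to 52.3, 53.5 and 51.0 CPM (log2 fold change 0.38 ± 0.05). Zfp664 rose by a log2 fold change of 0.15 ± 0.05 (edgeR's adjusted p = 0.0462), the smallest called change among members. That call passed in 7 of 16 alternatives and was lost without control replicates 2 and 3 or stretch replicates 1 and 4 (edgeR's adjusted p = 0.0822, 0.147, 0.0994 and 0.120; 0.0159 to 1.00 over all alternatives).

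Several well-studied members did not pass. Zfp809, a KRAB protein that silences retroviral DNA through its primer-binding site, had 16.8, 16.6 and 16.6 CPM in the controls and 17.3, 17.6 and 15.8 CPM after stretch (log2 fold change 0.02 ± 0.07, edgeR's adjusted p = 0.836). The groups overlapped, and the sign changed between scalings (-0.07 with library sizes alone). Zfp644, a partner of the histone methyltransferases G9a and GLP, had a log2 fold change of 0.02 ± 0.06, and its sign changed with library sizes alone (-0.07). Zfp706, which restrains Klf4 in embryonic stem cells, had one of -0.01 ± 0.04. Zfp609, which binds the cohesin loader Nipbl, and its relative Zfp608 had log2 fold changes of 0.11 ± 0.06 and 0.38 ± 0.16, and Zfp609 passed in 1 of 16 alternatives, the replicate block. For Zfp608 edgeR's adjusted p was 0.0949, and it passed in 4 of 16 alternatives, among them without control replicate 3 and without stretch replicate 2 (edgeR's adjusted p = 0.0380 and 0.0149; 0.0149 to 0.355 over all alternatives). Zfp830, a splicing-associated factor, had 21.9, 21.2 and 21.4 CPM in the controls and 23.4, 23.0 and 22.5 CPM after stretch. Its ranges did not overlap, yet the difference did not pass (log2 fold change 0.10 ± 0.05, edgeR's adjusted p = 0.177). The scarcest of this group were Zfp750, a regulator of epidermal differentiation, with 0.515 ± 0.204 and 0.703 ± 0.348 CPM, and Zfp711, a partner of the demethylase PHF8, with 0.614 ± 0.255 and 0.578 ± 0.167 CPM. Zfp639, Zfp653, Zfp692 and Zfp704 did not pass either, with log2 fold changes of 0.09, -0.20, -0.19 and -0.13. Of these, Zfp704 passed with the replicate block (edgeR's adjusted p = 0.0389; 0.0389 to 1.00 over all alternatives). Zfp668 had a log2 fold change of -0.22 ± 0.09 (edgeR's adjusted p = 0.0708), which passed in 3 of 16 alternatives, among them without stretch replicate 1 (edgeR's adjusted p = 0.0464; 0.0160 to 0.777 over all alternatives).

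By position, 63 members fell into 10 chromosome clusters, each a run of at least 4 members whose starts lie at most 1 Mb apart. Of 59 tested members in clusters 5 rose (8.47%) and 16 fell (27.1%), and of 68 outside 10 rose (14.7%) and 17 fell (25%). Over all genes 21.4% rose and 22.6% fell, so the shares that fell were near the background. Inside clusters 4 rose and 26 fell when counts were scaled by library size alone. Neighbouring members often differed in direction. In the chromosome 17 cluster from Zfp677 to Zfp945 (21383748 to 22867134, 11 members), Zfp948 rose, Zfp677, Zfp820 and Zfp945 fell and 7 did not pass. Of 10 other tested genes in the span 0 were called. These 10 include Zfp54, Zfp51, Zfp53, Zfp52 and Zfp229, zinc finger genes numbered below 600. Zfp820 fell from 8.21 ± 0.874 to 4.97 ± 0.838 CPM (means ± SD, n = 3 per group; log2 fold change -0.72 ± 0.15). Zfp945 had a log2 fold change of -0.78 ± 0.22 (edgeR's adjusted p = 0.0217), lost without control replicate 2 or 4 (edgeR's adjusted p = 0.0918 and 0.0540; 0.00308 to 0.0918 over all alternatives).

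On chromosome 7 there were 3 clusters with different patterns. In the cluster from Zfp771 to Zfp646 (127244526 to 127885996), 5 of 9 members fell, namely Zfp771, Zfp768, Zfp764, Zfp629 and Zfp646, and 0 rose. Zfp768 had 24.0, 23.8 and 23.8 CPM in the controls and 18.0, 19.7 and 19.8 CPM after stretch (log2 fold change -0.32 ± 0.06, edgeR's adjusted p = 0.00320). Zfp646 had 60.9, 59.7 and 57.6 CPM in the controls and 45.9 to 50.6 CPM after stretch (log2 fold change -0.28 ± 0.05). Zfp764 fell by a log2 fold change of -0.34 ± 0.07, and 27.1% of its 50-base words occur in other genes. The 5 decreases were of similar size, between -0.28 and -0.35. Of 20 other tested genes in that span 4 fell and 0 rose, with a median of -0.10 against -0.32 for the members. In the cluster from Zfp936 to Zfp819 (43177588 to 43618279), Zfp715 and Zfp719 rose and Zfp658 did not pass (-0.26 ± 0.15). The other two members there, Zfp936 and Zfp819, had at most 6 reads in a library. In the cluster from Zfp787 to Zfp772 (6131489 to 7209998), Zfp954 rose and Zfp667 fell, and Zfp787, Zfp773 and Zfp772 did not pass, though Zfp772 passed in 1 of 16 alternatives.

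Of the other 6 clusters, that on chromosome 6 had 4 calls among 7 tested members and the others at most 1 each. In the chromosome 6 cluster from Zfp786 to Zfp775 (47819266 to 48623227), Zfp777 rose (0.25 ± 0.07), and Zfp746, Zfp862 and Zfp775 fell. Of 10 other tested genes in that span 5 fell and 0 rose, and these 10 include Zfp398, Zfp282, Zfp212 and Zfp467. The call of Zfp777 was lost without control replicates 2 and 4 (edgeR's adjusted p = 0.0517 and 0.0626; 0.00433 to 0.667 over all alternatives) and with library sizes alone (edgeR's adjusted p = 0.0921). Zfp775 went from 10.7, 12 and 9.76 CPM to 7.42, 7.63 and 6.94 CPM (log2 fold change -0.56 ± 0.10). In the chromosome 13 cluster from Zfp712 to Zfp738 (67038594 to 67683512), Zfp759 fell and the other 5 members did not pass, among them Zfp738 (-0.22 ± 0.09), which passed in 1 of 16 alternatives, and Zfp953 (-0.34 ± 0.15), which passed in 2. This region holds the regulator of sex-limitation genes, known for setting the expression of sex-dependent liver genes. In the chromosome 17 cluster from Zfp871 to Zfp763, Zfp799 fell from 8.04 ± 0.315 to 4.79 ± 0.573 CPM (log2 fold change -0.75 ± 0.12), while Zfp871 and Zfp763 did not pass. Zfp871 passed in 2 of 16 alternatives, the replicate block and library sizes alone (edgeR's adjusted p = 0.00901 and 0.0249; 0.00901 to 0.987 over all), and Zfp763 in 1, library sizes alone (0.0411; 0.0411 to 0.274 over all). Zfp961 was the 1 call in the chromosome 8 cluster from Zfp709 to Zfp961 (-0.47 ± 0.12), where Zfp709 and Zfp882 had log2 fold changes of 0.05 and -0.23. The other chromosome 8 cluster, from Zfp930 to Zfp866, had 0 calls among 6 members in edgeR, with Zfp930, Zfp868 and Zfp963 at 0.17, 0.16 and -0.50. Of these, Zfp963 passed in 2 of 16 alternatives, limma-voom (adjusted p = 0.0459) and library sizes alone (adjusted p = 0.0348), with 0.0348 to 0.215 over all. In the chromosome 9 cluster from Zfp653 to Zfp810, Zfp810 was the 1 call of 3 tested members.

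**Figure D4:**
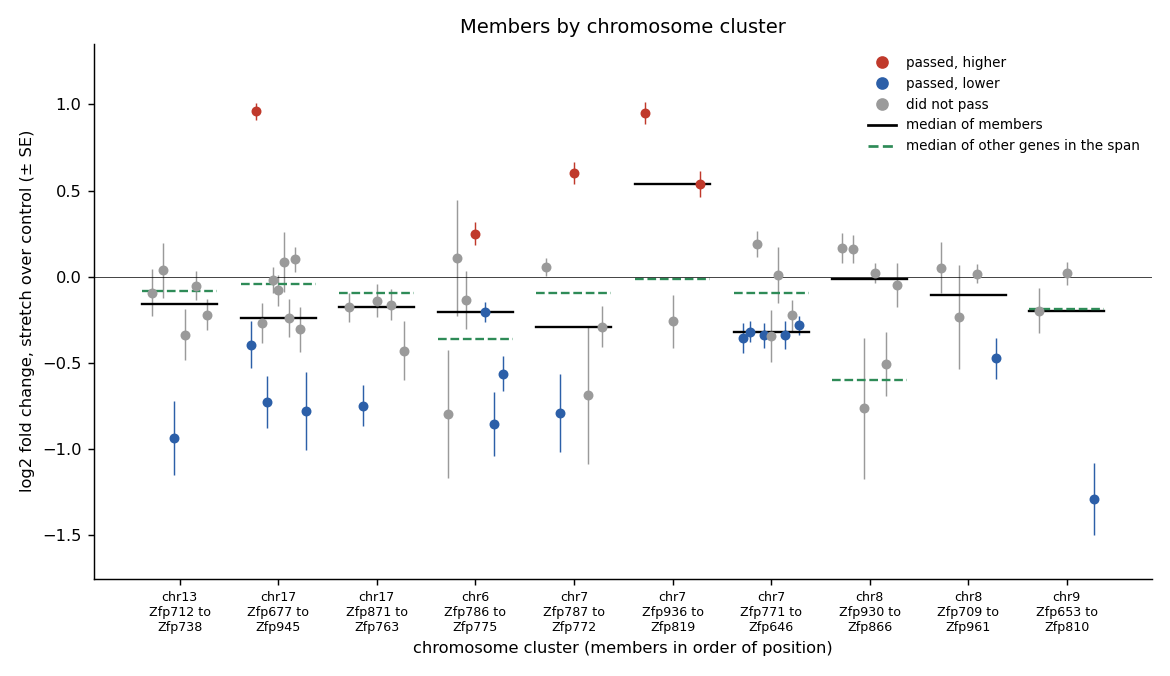
Log2 fold change of stretch over control (vertical axis, with SE bars) of the tested members in each of the 10 chromosome clusters, in order of position within a cluster. Black lines are the medians of the members and dashed green lines the medians of other tested genes in the span. In some spans these other genes include zinc finger genes that are not members. The chromosome 7 cluster of Zfp936 to Zfp819 has the highest member median, 0.54, and that of Zfp771 to Zfp646 the lowest, -0.32.

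Proteins were classed from translated GENCODE transcripts of 136 members. A strict pattern for the KRAB box matched 67 and did not match 69, with a median of 10 C2H2 fingers and a range of 0 to 33. Below, KRAB genes are those with a match. A protein without a match can still hold a KRAB domain, so the class of the others may be mixed. Among tested KRAB genes 5 rose and 10 fell of 59, and among the others 10 rose and 22 fell of 65. These are 8.47% higher and 16.9% lower for KRAB genes and 15.4% and 33.8% for the others, against 21.4% and 22.6% of all genes. The median log2 fold change was -0.18 for KRAB genes and -0.10 for the others, so the class with fewer calls had the lower median. KRAB genes were also scarcer, with a median of 1.79 against 3.11 RPKM, and their median SE was 0.13 against 0.10. The class counts depended on the setting, as did those over all genes. On library sizes alone 20 KRAB genes fell and 4 rose, beside 4299 and 2091 of all genes. Without control replicate 2 the count of KRAB genes that fell was 5, against 6 without control replicate 4 and 6 without stretch replicate 4. Over all genes 2408, 2652 and 2575 fell in these fits, against 3221 with all libraries. A pattern that also takes tyrosine at its first position placed 79 members in the KRAB class, of which 5 rose and 14 fell. These 79 include members that were not tested, so the counts are not shares to set against those of all genes. The 5 KRAB genes that rose, Zfp948, Zfp715, Zfp954, Zfp719 and Zfp777, have 8 to 18 fingers.

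Because these genes arose by duplication, reads could be split between copies. The median member shared 1.63% of its 50-base words with transcripts of other genes, and 6 shared at least 50%. Of the 27 tested members sharing at least 10%, 2 rose (7.41%) and 7 fell (25.9%). Of the 100 sharing less, 13 rose (13%) and 26 fell (26%), against 21.4% and 22.6% of all genes. Zfp948, Zfp715 and Zfp618 shared 0.12%, 0% and 0.24%. Zfp652 shared 18.6%, of which 17.3% with Abi3. Zfp697 shared 12.9%, of which 9.27% with Gja5, and Zfp703 shared 10.6%, with Gm45371. Zfp784, a member that fell (log2 fold change -0.65 ± 0.20), shared 94.7%, most with Zfp865, the next member on chromosome 7, which did not pass (-0.06), so its value is uncertain. By deposited coordinates, 108 of the 127 tested members overlapped no other gene, and 14 of these rose (13.0%) and 27 fell (25%).

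A wide list of corepressor and heterochromatin genes, called partners below, also changed in both directions. It reaches beyond Trim28 and Setdb1, which did not pass, to genes such as Dnmt1, Kdm1a and those of histone H3.3. Of 36 tested genes for corepressors and heterochromatin proteins, 11 rose (30.6%), 9 fell (25%) and 16 did not pass. Over all genes 21.4% rose and 22.6% fell, so the share that fell was near the background. The higher share that rose was not tested, and the partners were not compared with genes of similar level. Trim28 had 201 ± 2.81 CPM in the controls and 210.1 ± 15 CPM after stretch (mean ± SD, n = 3 per group; log2 fold change 0.07 ± 0.06, edgeR's adjusted p = 0.371). Setdb1 had a log2 fold change of 0.04 ± 0.06. The signs of both turned with library sizes alone (-0.03 and -0.05). Cbx5, which encodes the heterochromatin protein HP1 alpha, fell from 75.8 ± 5.16 to 43.9 ± 7.12 CPM (log2 fold change -0.79 ± 0.11, edgeR's adjusted p = 0.000627). The maintenance methyltransferase gene Dnmt1 fell by a log2 fold change of -0.58 ± 0.08, Ehmt2, which encodes G9a, by -0.43 ± 0.04, and Atf7ip, which stabilises SETDB1, by -0.38 ± 0.05. The histone demethylase gene Kdm1a, Morc2a, whose product works with the HUSH silencing complex, the corepressor gene Ctbp2 and the histone H3.3 gene H3f3b rose by 0.33 ± 0.04, 0.33 ± 0.04, 0.37 ± 0.06 and 0.22 ± 0.04. The other H3.3 gene, H3f3a, chosen after its value was seen, fell by -0.19 ± 0.05 (edgeR's adjusted p = 0.0199). Among the partners 5 rose and 13 fell on library sizes alone, and against a minimum change of 1.2-fold 0 rose and 4 fell. Over all genes 2091 rose and 4299 fell on library sizes alone, and 1210 and 1327 against that minimum change.

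Numbered Zfp genes below 600 had a similar balance. Of 188 tested (201 in the table), 25 rose (13.3%) and 56 fell (29.8%), with a median log2 fold change of -0.10. Over all genes 21.4% rose and 22.6% fell, so the share that rose was below the background and the share that fell above it. Neither difference was tested. The number that fell was 33 without control replicate 2 and 36 without stretch replicate 4. On library sizes alone it was 75, and 16 rose. Counts over all genes moved in the same direction in each of these settings. Of all genes 3040 rose and 3221 fell with TMM and all libraries. The number that fell was 2408 without control replicate 2 and 2575 without stretch replicate 4. On library sizes alone 2091 rose and 4299 fell. The difference between the number ranges was not tested.

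At the low end, 13 of the 139 members did not reach 10 reads in 3 libraries. Of these, Zfp600, Zfp616, Zfp648, Zfp663, Zfp735 and Zfp831 had 0 counts in all 6 libraries, which allows up to 0.0593 CPM (3 counts) in the shallowest library, a limit that covers counting error only. Zfp641 was tested with 4 to 14 reads and did not pass. Zfp957 had 4, 7 and 5 reads in control and 2, 0 and 0 reads in stretch libraries, and Zfp936 had 2, 1 and 2 reads and then 0 in each, and neither was tested here. Zfp811, Zfp819, Zfp872 and Zfp879 had at most 8 reads in a library. The authors' deposited table, which holds all 139 members, gives 41 of them an FDR under 0.05, 13 higher and 28 lower, and 39 of these 41 were also called here.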

How the data were processed

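RNA from 3 control and 3 stretch libraries was measured with a TruSeq kit, per the labels' protocols. The authors deposited unnormalised counts for each gene. TopHat2 2.1.0, featureCounts, edgeR and GRCm38 (mm10) appear in the submitters' processing notes. The sources used here do not give the annotation, strand setting or filters, so reads of antisense or overlapping genes cannot be told apart. RPKM, as deposited by the authors, divides by coding length. Their comparison table gives log2 fold changes, a likelihood ratio score and p-values with FDR, per the file headers. Coordinates are those of the deposited table.

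The test on counts was that of edgeR 4.0.16 under R 4.3.3 (TMM, filterByExpr, quasi-likelihood F test on group, Benjamini-Hochberg over 14222 genes, call at 0.05). SE is the log2 fold change divided by the square root of F. Each library held 16489 to 16818 genes with a count. The steps were tested on simulated data. The members, gene lists, motifs and tests were chosen with earlier results of these data known.

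Named members are up to 8 called in each direction ranked by size of change, if mean log2 CPM was 0 or more and group ranges were apart (15 and 33 were eligible), the 6 with the highest mean RPKM, those with a described role, and the 3 with the smallest p per cluster. Other members are named to account for counts. Of the partners, up to 4 per direction and Trim28 and Setdb1 are named; Fam208a was not used here. Of the 139 symbols, 139 matched GENCODE M21 (GRCm38), 3 of them by a synonym. The longest open reading frame per gene was searched for C2H2 fingers and a KRAB box in place of a RefSeq protein. A 50-base word counts as shared when it lies in a transcript of another gene on either strand. Alternatives were RLE, upper-quartile and no scaling factors, 2 other filters, DESeq2 1.42.0, limma-voom (limma 3.58.1), the edgeR exact test, glmTreat at 1.2-fold, the replicate number as a block, each library left out, other cluster gaps and KRAB patterns. The tyrosine pattern, and marker counts without stretch replicate 1, were added after the data were seen.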

Additional observations from a re-analysis of the deposited data

How the results depend on the processing

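The number of members that rose lay between 9 and 16 over all alternatives and the number that fell between 13 and 45. With glmTreat at 1.2-fold, 1210 genes rose and 1327 fell over all genes, and 9 and 13 among members. The counts were 8 and 20 among Zfp genes below 600, 0 and 4 among corepressor partners, and 5 and 9 among members without a KRAB match. In the same setting 6 members in clusters and 3 KRAB members fell. On library sizes alone, 16 Zfp genes below 600 and 5 corepressor partners rose, and 26 members in clusters and 20 KRAB members fell. In that setting 2091 genes rose and 4299 fell over all genes, against 3040 and 3221 with TMM. With each library left out in turn, between 21 and 30 members, 33 and 44 Zfp genes below 600 and 5 and 9 KRAB members fell. Over all genes between 2408 and 2873 fell in these fits. Of the 48 members called, 33 passed with every library left out in turn. The cause of these moves was not tested, except that leaving out a library leaves fewer samples.

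Among the genes named in the text, those whose log2 fold change turned sign had not passed. On library sizes alone 14 of 127 members turned from above to below 0, and 0 of them were called in either setting. The named genes that turned were then at -0.00034 for Zfp639, -0.0686 for Zfp644, -0.0722 for Zfp809, -0.0421 for Zfp709, -0.0352 for Zfp787, -0.0258 for Trim28 and -0.0484 for Setdb1. With RLE factors and DESeq2, Zfp706 was at 0.0066 and 0.0067. With each library left out in turn, the log2 fold change ran from -0.0083 to 0.0779 for Zfp644, from -0.0207 to 0.0011 for Zfp706, from -0.398 to 0.138 for Zfp711, from -0.0049 to 0.784 for Zfp750, from -0.00056 to 0.0655 for Zfp809, from -0.42 to 0.0203 for Zfp882, from -0.0609 to 0.156 for Zfp709 and from -0.0057 to 0.107 for Setdb1.

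Both groups have replicates numbered 2 and 4. The labels do not tie these numbers to a shared isolation, and 2 pairs are too few to settle a pairing from the data. The correlation of deviations was 0.21 for number 2 and 0.11 for number 4, against -0.20 to 0.18 for libraries with different numbers. With the replicate number as a block, 16 members rose and 35 fell, 45 of the 48 calls being shared. In that blocked fit the log2 fold change was -0.0185 for Zfp644, 0.181 for Zfp711, -1.03e-05 for Zfp809 and -0.0187 for Zfp709, none of which passed. The marker lists without stretch replicate 1 had 3 hepatocyte and 5 macrophage markers higher, against 8 and 6 with all libraries. Depth limits the members under 10 reads most.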
